A study of Mus musculus with 12 samples.

Results

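The transcripts described here are those of 2 FOXO transcription factors and 8 growth-arrest, sestrin and metabolic genes known as FOXO targets, 10 genes of the 26962 in the deposited table. They were taken by gene name: Foxo1, Foxo3, Btg1, Cdkn1b, Ccng2, Sesn1, Sesn3, Irs2, Gadd45a and Txnip. RNA came from CD8 T cells sorted with an Rpl18 tetramer, which picks out cells whose receptor binds 1 Rpl18 peptide. Cells were taken on day 10 from mice that had received MC38 colon carcinoma cells, and all groups share the tumor and the sort. The 4 groups of 3 libraries were tumor and tumor-draining lymph node (TDLN) of mice with a CD8-specific knockout (KO) of TrIP, and tumor and TDLN of wild-type (WT) mice. TrIP is a transmembrane inhibitor of PI3K encoded by Pik3ip1. The promoter that drives the deletion, the animals' ages and any pooling are not given in the labels.

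FOXO factors are held out of the nucleus when AKT, downstream of PI3K, phosphorylates them. In a resting T cell with little PI3K activity they enter the nucleus and raise genes of homing, survival, metabolic restraint and cell-cycle arrest. FOXO activity is set mainly by the location of the protein, so transcript levels of the factors do not measure it.

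Values are normalized counts as deposited, with column totals of 22113970 to 26490590 and depths estimated at 18.3 M to 36.9 M reads. Pik3ip1 stood at 173.3, 95.2 and 55.5 normalized counts in the tumor libraries labelled KO, against 179.1, 118.8 and 137.7 in WT tumor. In TDLN it stood at 854.2, 1009 and 1573 in the libraries labelled KO, against 607, 1095 and 834.2 in WT. The genotypes overlapped in both tissues, and a whole-gene count does not see the loss of single exons, so KO names a library by its title. CD8 T-cell identity markers made up 0.56% to 0.84% of the values of tumor libraries and 0.525% to 0.864% in TDLN libraries, with 14 of 14 markers above 0 in every group. Cd8a, a subunit of the CD8 coreceptor, ranged from 18065 to 37954 normalized counts in tumor and from 12566 to 24404 in TDLN. The labels do not say that libraries of a group came from separate mice, so p-values measure the spread between these libraries.

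The promoters of the 3 members that differed between tissues, Btg1, Irs2 and Gadd45a, are shown with that of Txnip, which holds a FOXO-type motif and did not pass the test. Each is the 250 bases before the RefSeq gene start in build GRCm38.p6, 5′ to 3′ on the gene's strand. Capitals mark matches to the FOXO core GTAAACA, the insulin-response motif CAAAACA or the E-box CACGTG, the last a site of basic helix-loop-helix factors. The windows are chr10:96616751-96617000 (plus strand) for Btg1, chr8:11008930-11009179 (minus strand) for Irs2, chr6:67037408-67037657 (minus strand) for Gadd45a and chr3:96557707-96557956 (plus strand) for Txnip.
Btg1: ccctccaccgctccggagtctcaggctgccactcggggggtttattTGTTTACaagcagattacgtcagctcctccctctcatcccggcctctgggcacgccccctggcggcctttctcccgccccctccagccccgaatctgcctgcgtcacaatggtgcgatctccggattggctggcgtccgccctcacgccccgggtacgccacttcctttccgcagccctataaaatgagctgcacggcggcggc
Irs2: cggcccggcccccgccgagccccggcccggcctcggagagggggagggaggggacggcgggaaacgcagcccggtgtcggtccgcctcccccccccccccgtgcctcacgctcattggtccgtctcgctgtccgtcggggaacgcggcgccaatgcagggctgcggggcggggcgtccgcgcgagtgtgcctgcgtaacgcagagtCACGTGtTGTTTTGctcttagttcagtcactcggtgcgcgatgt
Gadd45a: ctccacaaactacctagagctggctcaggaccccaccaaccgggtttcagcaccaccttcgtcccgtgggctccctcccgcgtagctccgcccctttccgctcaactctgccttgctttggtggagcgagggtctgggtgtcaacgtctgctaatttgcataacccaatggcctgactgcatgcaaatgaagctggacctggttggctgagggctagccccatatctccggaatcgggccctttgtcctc
Txnip: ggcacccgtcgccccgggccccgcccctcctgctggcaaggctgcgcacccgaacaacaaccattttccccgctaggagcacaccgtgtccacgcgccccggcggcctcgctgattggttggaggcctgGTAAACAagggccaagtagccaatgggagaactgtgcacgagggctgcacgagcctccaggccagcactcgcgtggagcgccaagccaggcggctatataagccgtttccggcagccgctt

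In the GENCODE M21 gene models of build GRCm38, the factors lie with Foxo1 at chr3:52268336-52353221 (plus strand) and Foxo3 at chr10:42181841-42276755 (minus strand). The growth-arrest genes are Btg1 at chr10:96617006-96622809 (plus strand), Cdkn1b at chr6:134920401-134925513 (plus strand), Ccng2 at chr5:93267257-93276231 (plus strand) and Gadd45a at chr6:67035096-67037457 (minus strand). The sestrins are Sesn1 at chr10:41809935-41908424 (plus strand) and Sesn3 at chr9:14275067-14333101 (plus strand), and the metabolic genes Irs2 at chr8:10984681-11008458 (minus strand) and Txnip at chr3:96557957-96561883 (plus strand).

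All 10 members matched a RefSeq promoter, with 11 windows because Sesn1 has a pair of starts. The FOXO core was found in 2 of the 11 windows, those of Btg1 and Txnip, and in 3.17% of all 32851 promoter windows of that length. CAAAACA was found in 2 of 11, those of Ccng2 and Irs2, against 5.56% of all windows. The E-box was found in 1 of 11, that of Irs2, against 6.02%. The cyclic AMP response motif TGACGTCA was found in 0 of 11, against 1.55%. Both strands were searched, and the motifs do not overlap one another in these windows. A match is a description of these letters and not of binding. The member windows were GC-rich, from 56.0% to 76.4%, and all 11 lay above the median of 52.4% over all windows.

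Levels differed widely among the members. Per kb of exon, by GENCODE M21 gene models, Btg1 was highest with a mean of 9975 normalized counts per kb over the 12 libraries, and Foxo3 lowest with 33.8. Between them came Txnip (407), Ccng2 (249), Foxo1 (166), Cdkn1b (156), Sesn3 (98.5), Gadd45a (88.0), Sesn1 (57.1) and Irs2 (39.9). The lowest library of Btg1, at 1651 per kb, lay above the highest of Txnip, at 608 per kb. For all other neighbours in this order the ranges over libraries overlapped. The order differed by tissue: in TDLN the lowest means were those of Irs2, at 3.17 per kb in KO and 1.61 in WT, and of Gadd45a, at 20.3 and 22.7, below Foxo3 at 28.6 and 23.3. In tumor Foxo3 was lowest, at 48.0 in KO and 35.4 in WT, and Irs2 was at 92.9 and 61.9. Replicate spread differed too. The residual SD on the log2 scale was smallest for Foxo1 and Cdkn1b, at 0.30 each, and largest for Sesn3, at 0.67, beside a median of 0.38 over all genes tested.

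**Figure D1:**
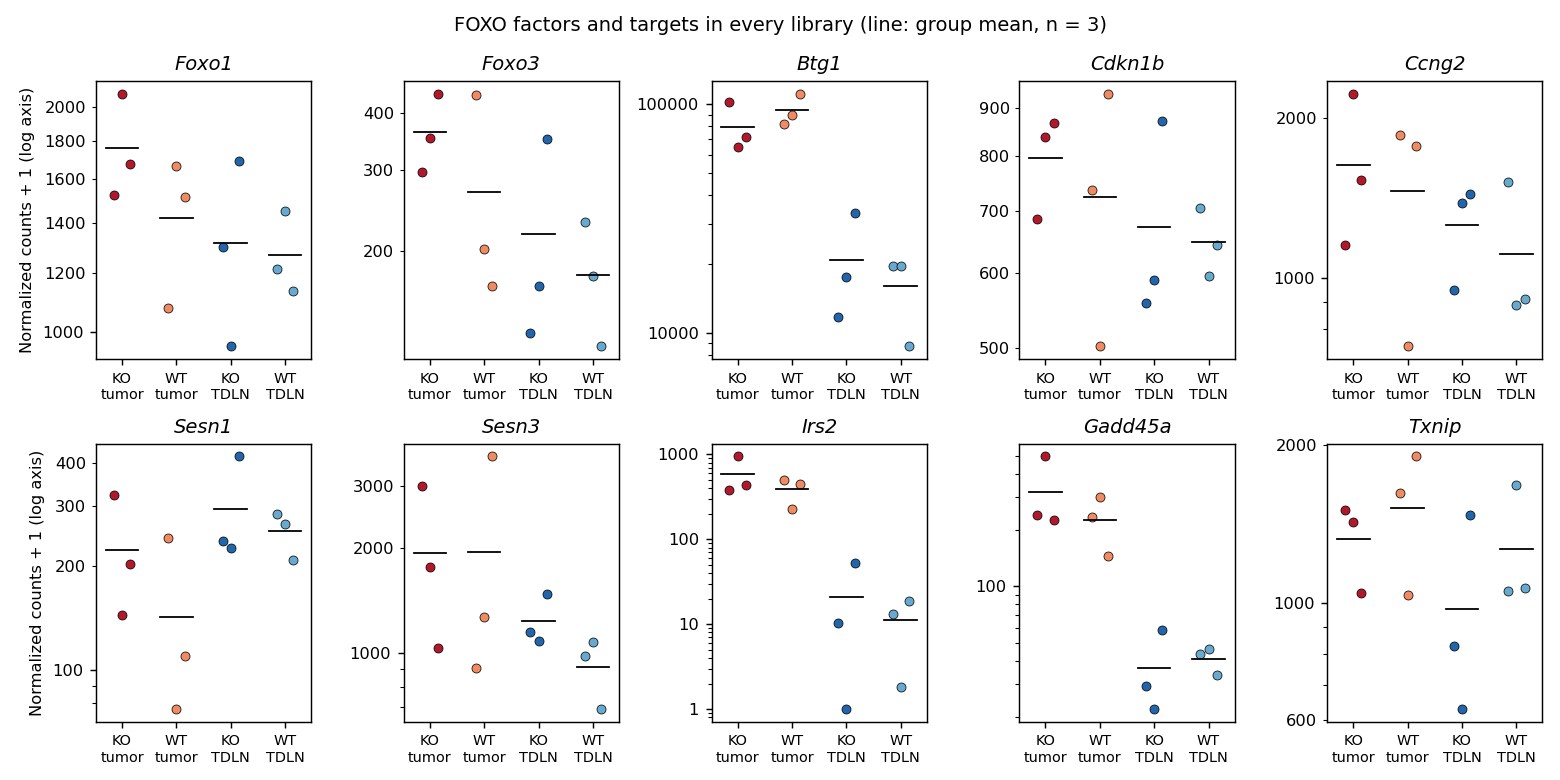
Normalized counts plus 1 on a log axis for the 10 members in 12 libraries, with points for libraries and lines for group means. Btg1, Irs2 and Gadd45a lie higher in every tumor library than in any TDLN library; the other 7 members overlap between the tissues.

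The first question was how these transcripts differ between tumor and TDLN in cells of 1 specificity, asked in KO and in WT. Btg1, Irs2 and Gadd45a rose in tumor in both genotypes, by 3.82-fold to 38.6-fold in group means. Neither Foxo1 nor Foxo3 passed the test, and the other 5 members did not pass either. Tests were two-sided with limma on log2(value + 24.9 normalized counts, equal to 1 CPM), adjusted by Benjamini and Hochberg over 16065 genes whose mean reached 1 CPM, at a threshold of 0.05. All 10 members passed that filter. Irs2 passed it through its tumor levels, since its TDLN means lie below it. Of the 10 members, 3 were called higher in tumor in each genotype and 0 lower. Over all genes tested, 30.6% were called in KO, 18.1% higher and 12.6% lower, and 26.8% in WT, 15.9% higher and 10.9% lower. Tumor lay above TDLN without overlap in 3 of 10 members in each genotype, and in 27.5% of all genes in KO and 22.8% in WT. The median log2 difference was 0.51 over the members in KO and 0.40 in WT, beside 0.05 over all genes in both.

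Scaling moved the split of calls over all genes. With columns set to 1 total, 2110 genes were higher and 2527 lower in WT, against 2560 and 1752 as deposited. With quantile normalization the counts were 2018 and 2285 in WT and 2396 and 2870 in KO, where 2902 and 2017 were called as deposited. The median of all genes then moved to -0.11 and -0.09 in WT and to -0.12 in KO with quantile normalization. Btg1, Irs2 and Gadd45a were called as higher under each scaling.

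Btg1 encodes an antiproliferative protein that promotes shortening of mRNA poly(A) tails and keeps T cells quiescent. It was at 101717, 65186 and 72058 normalized counts in KO tumor, against 11696, 17455 and 33404 in KO TDLN. WT tumor had 81523, 89410 and 111043, against 19659, 19660 and 8710 in WT TDLN. Every tumor library lay above every TDLN library, and the highest TDLN value was that of KO replicate 3. The log2 fold change was 2.04 in KO (SE 0.37, limma adjusted p = 0.00172) and 2.63 in WT (SE 0.37, limma adjusted p = 0.000375).

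Irs2 encodes an adaptor that links insulin and cytokine receptors to PI3K, and it is a FOXO target in liver. It was at 376.7, 946.5 and 438.1 normalized counts in KO tumor, against 9.28, 0 and 50.9 in KO TDLN. The WT values were 498.7, 224.4 and 451.2 in tumor, against 12.1, 0.813 and 17.5 in TDLN. Every tumor library lay above every TDLN library, and KO TDLN replicate 3 was the highest of the TDLN libraries. The ratio of means was 29.3 in KO and 38.6 in WT. The log2 fold change was 3.82 in KO (SE 0.47, limma adjusted p = 0.000109) and 3.53 in WT (SE 0.47, limma adjusted p = 0.000231). These depend on the pseudocount: with 0.25 CPM they were 4.95 and 4.70, and with 4 CPM 2.45 and 2.11.

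Gadd45a encodes a stress-induced protein of growth arrest and DNA repair. It was at 238.6, 494.8 and 224.4 normalized counts in KO tumor, against 28.5, 21.1 and 57.7 in KO TDLN. WT tumor had 234.7, 298.3 and 145, against 42.5, 45.1 and 32.7 in WT TDLN. All tumor libraries lay above all TDLN libraries. The log2 fold change was 2.47 in KO (SE 0.36, limma adjusted p = 0.000373) and 1.90 in WT (SE 0.36, limma adjusted p = 0.00228). With a pseudocount of 4 CPM it was 1.58 and 1.19.

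Cell markers also differed between the tissues. Of 14 CD8 identity genes, 2 passed as higher and 3 as lower in tumor in KO, beside 18.1% and 12.6% of all genes. In WT 5 passed as higher and 1 as lower, beside 15.9% and 10.9%. Cd8a rose by 0.86 in WT (SE 0.23, limma adjusted p = 0.0168), with 0.23 in KO (adjusted p = 0.481). Of 15 macrophage and monocyte markers, 13 passed as higher in tumor in KO and 12 in WT. Without Ly6c2, which CD8 T cells also express, the other 14 summed to 0.109% to 0.244% of all values in KO tumor and 0.0515% to 0.132% in WT tumor. In TDLN they summed to 0.00395% to 0.0133% in KO and 0.0083% to 0.0145% in WT. Among them 6 were at 0 in every KO TDLN library: C1qa, C1qb, C1qc, Cd14, Fcgr1 and Mrc1. In WT TDLN 2 were, C1qc and Cd14, and these passed the filter through tumor. A marker at 0 throughout a TDLN group could only be called as higher in tumor of that genotype. KO tumor replicate 2, with the highest macrophage share in its group, was highest in Irs2 and Gadd45a and lowest in Btg1. That library was also highest of its group in Foxo1 and Ccng2, in 10 of 14 genes of dissociation and stress and in 9 of 16 cycling genes. In WT tumor replicates 1, 3 and 4 that share was 0.132%, 0.128% and 0.0515%. Replicate 4, with the lowest share, was highest in Btg1, lowest in Gadd45a and between the others in Irs2, which was lowest in replicate 3. Of 6 fibroblast markers, 4 passed as higher in tumor in KO and 5 in WT, with sums of 0.0191% to 0.13% of all values in tumor and at most 0.000037% in TDLN. In KO TDLN 5 of the 6 were at 0 in every library, and in WT TDLN 3 were. Those markers passed the filter through tumor and could only be called as higher. Of 14 genes of dissociation and stress, 11 passed as higher in KO and 12 in WT, with sums of 0.107% to 0.192% in tumor and 0.022% to 0.0447% in TDLN. B-cell markers were lower in tumor, with 9 of 9 tested called in KO and 7 of 9 in WT and medians of -2.83 and -2.36. The part of these in the rise of the 3 members was not tested. In bulk RNA, fewer cells of a type and less RNA per cell cannot be told apart.

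Foxo1, the main FOXO factor of T cells, was at 1525, 2080 and 1675 normalized counts in KO tumor, against 1297, 957.1 and 1693 in KO TDLN. The WT values were 1077, 1666 and 1516 in tumor, against 1214, 1449 and 1136 in TDLN. The tissues overlapped in both genotypes. The log2 difference was 0.44 in KO (95% interval -0.07 to 0.95, limma adjusted p = 0.175) and 0.15 in WT (-0.36 to 0.65, adjusted p = 0.677).

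Foxo3, a factor that restrains T-cell survival and expansion, was at 297.3, 352.7 and 440.9 normalized counts in KO tumor, against 131.5, 166.4 and 351.4 in KO TDLN. WT tumor had 437.9, 200.8 and 166.3, against 230.3, 175.5 and 122.6 in WT TDLN. The log2 difference was 0.78 in KO (95% interval -0.07 to 1.63, limma adjusted p = 0.151) and 0.47 in WT (-0.38 to 1.32, adjusted p = 0.40). In KO the overlap came from TDLN replicate 3, and in WT tumor replicate 1 alone lay above all TDLN libraries.

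Cdkn1b, which encodes the cyclin-dependent kinase inhibitor p27, ranged from 500.5 to 932.1 normalized counts in tumor and 556.3 to 870.9 in TDLN. Its log2 difference was 0.26 in KO (95% interval -0.27 to 0.79, limma adjusted p = 0.449) and 0.11 in WT (-0.42 to 0.64, adjusted p = 0.757). Ccng2, an atypical cyclin that slows the cell cycle, ranged from 741.4 to 2219 in tumor and 888.1 to 1515 in TDLN. Its difference was 0.34 in KO (-0.44 to 1.12, adjusted p = 0.493) and 0.32 in WT (-0.46 to 1.10, adjusted p = 0.534). The tissues overlapped for both genes.

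The sestrins restrain mTORC1 and limit oxidative stress. Sesn1 was at 321.1, 143.4 and 202.4 normalized counts in KO tumor, against 236.7, 225.6 and 416.7 in KO TDLN. The WT values were 241.1, 76 and 109.1 in tumor, against 283.9, 264.1 and 207.5 in TDLN. Its log2 difference was -0.38 in KO (95% interval -1.21 to 0.45, limma adjusted p = 0.48) and -0.84 in WT (-1.67 to -0.01, adjusted p = 0.122). WT tumor replicate 1 overlapped the TDLN libraries, and without it the WT value was -1.24 (adjusted p = 0.0254).

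Sesn3 was at 2990, 1766 and 1037 normalized counts in KO tumor, against 1147, 1081 and 1474 in KO TDLN. WT tumor had 904.7, 1268 and 3642, against 980, 1074 and 691.7 in WT TDLN. The tumor libraries spread more than the TDLN libraries, with KO replicate 1 and WT replicate 4 the highest. The log2 difference was 0.52 in KO (95% interval -0.47 to 1.51, limma adjusted p = 0.411) and 0.83 in WT (-0.17 to 1.82, adjusted p = 0.201).

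Txnip, which binds thioredoxin and restrains glucose uptake, was at 1505, 1426 and 1044 normalized counts in KO tumor, against 829.6, 628.9 and 1468 in KO TDLN. The WT values were 1616, 1037 and 1900 in tumor, against 1055, 1676 and 1067 in TDLN. The log2 difference was 0.50 in KO (95% interval -0.19 to 1.2, limma adjusted p = 0.251) and 0.25 in WT (-0.45 to 0.94, adjusted p = 0.598). With limma array weights, which count variable libraries less, the KO value was 0.74 (adjusted p = 0.0447).

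**Figure D2:**
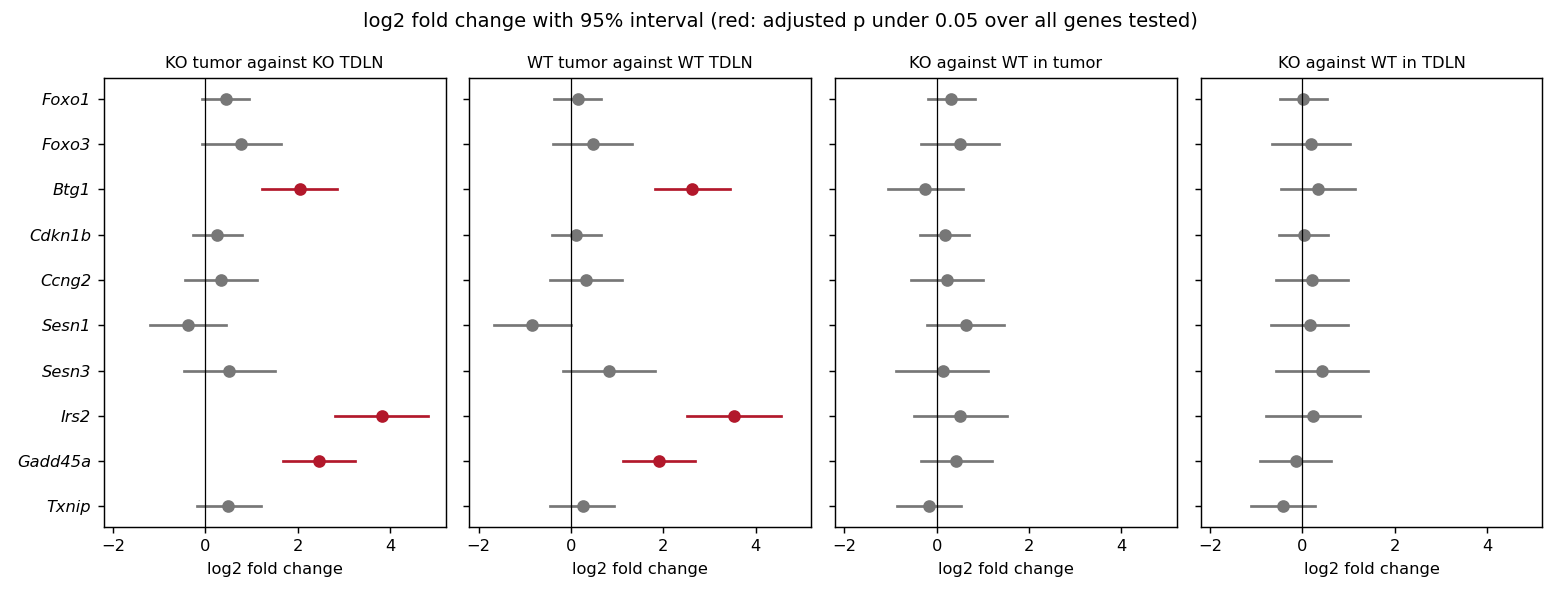
log2 fold changes of the 10 members in 4 comparisons, with 95% intervals as lines and red for genes past the threshold. Btg1, Irs2 and Gadd45a are red in both tissue comparisons, with values from 1.90 to 3.82, and no gene is red in the genotype comparisons.

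KO was compared with WT in each tissue to ask whether loss of a PI3K inhibitor goes with a change in FOXO-linked transcripts. None of the 10 members passed in tumor or in TDLN by limma, and 0 had an unadjusted p under 0.05. Over all genes 0.0% were called in either tissue, with 6.25% at an unadjusted p under 0.05 in tumor and 0.766% in TDLN. In tumor 8 of 10 members lay above 0, beside 51.9% of all genes, with a median of 0.27, and 5 of 10 without WT tumor replicate 3, with a median of 0.07. The log2 differences lay between -0.25 for Btg1 and 0.63 for Sesn1. The intervals leave room for sizeable differences: that of Sesn1 ran from -0.20 to 1.46 (limma adjusted p = 0.81), that of Foxo3 from -0.35 to 1.35 (adjusted p = 0.813) and that of Irs2 from -0.50 to 1.53 (adjusted p = 0.83). That of Foxo1 was narrower, from -0.19 to 0.83 (adjusted p = 0.811). The tumor groups overlapped in all 10 members, where 7.48% of all genes did not overlap. In the same comparison 15 of 15 macrophage markers lay above 0 (median 0.56), 15 of 16 cycling genes (0.37) and 1 of 14 CD8 identity genes (-0.27), with 0 of each past the test. Their part in the members' values was not tested.

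In TDLN the log2 differences of KO against WT lay between -0.42 for Txnip (95% interval -1.12 to 0.27) and 0.43 for Sesn3 (-0.56 to 1.43), each with limma adjusted p = 1. Sesn3 was the 1 member whose groups did not overlap, at 1081 to 1474 normalized counts in KO TDLN, against 691.7 to 1074 in WT TDLN. Groups did not overlap in 6.35% of all genes tested. Foxo1 differed by 0.02 (-0.49 to 0.53) and Cdkn1b by 0.03 (-0.50 to 0.56). The interaction, that is the genotype difference in tumor less the one in TDLN, did not pass for any member by limma, with 0.0% of all genes called and 2.89% at an unadjusted p under 0.05. It lay between -0.59 for Btg1 (95% interval -1.74 to 0.55) and 0.56 for Gadd45a (-0.53 to 1.66).

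The TDLN values leaned on 1 library. KO TDLN replicate 3 had the highest value of its group in all 10 members, where it was highest in 35.9% of all genes tested. Foxo1 stood at 1693 normalized counts in it, against 1297 and 957.1 in the other KO TDLN libraries, and Btg1 at 33404, against 11696 and 17455. Txnip stood at 1468 against 829.6 and 628.9. With that library, 8 of 10 members lay above 0 in KO against WT in TDLN, beside 51.0% of all genes. The median was 0.18 over the members, beside 0.0 over all genes. Without it 2 of 10 did, with a median of -0.17, and without WT TDLN replicate 4 there were 5 of 10, with a median of 0.01. The same library was highest in 11 of 13 homing and memory targets and in 11 of 14 other quiescence genes. It was lowest in 15 of 16 cycling genes, among them Mki67, a proliferation marker, at 9379 normalized counts, against 11561 and 12339. It was also highest in 9 of 9 tested B-cell markers and in 12 of 14 CD8 identity genes. All 11 listed B-cell markers summed to 0.0454% of its values, against 0.0297% and 0.0277%. The part of B-cell RNA in the members' values was not tested.

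**Figure D3:**
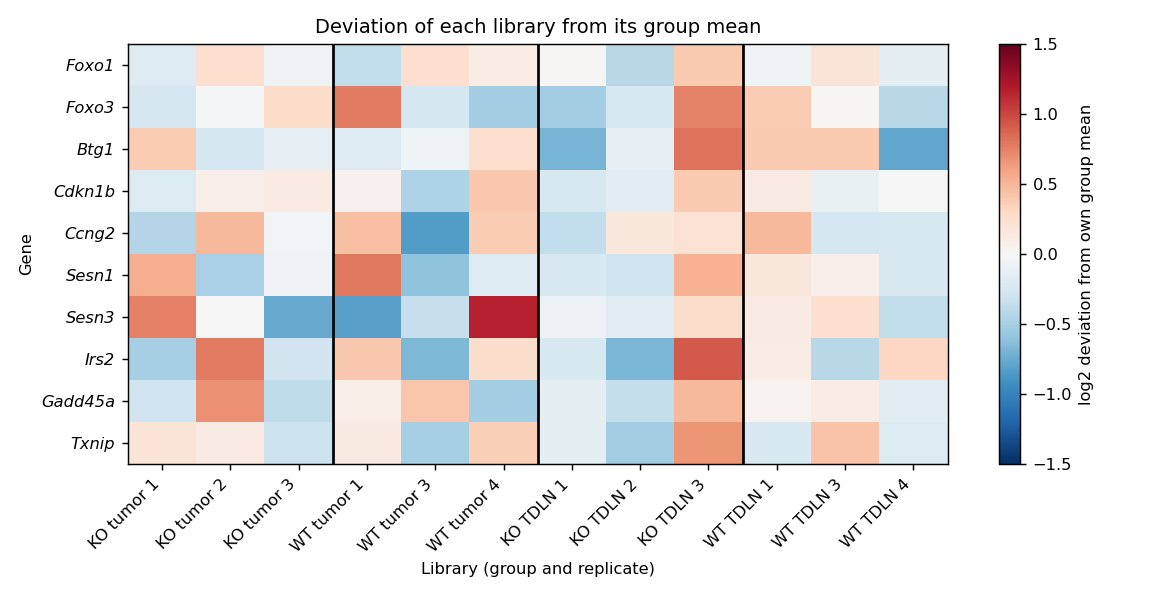
log2 deviation of each of 12 libraries from its own group mean for the 10 members, with red above and blue below the mean and black lines between groups. The column of KO TDLN replicate 3 is red for all 10 members, and no other library is highest of its group in more than 5.

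Other genes around FOXO were taken from lists of known regulators and targets. Beside the counts of these and the following lists, 18.1% of all genes tested were called higher in tumor and 12.6% lower in KO. In WT the shares were 15.9% and 10.9%. Among FOXO regulators, 3 of 18 tested genes rose and 1 fell in KO tumor against KO TDLN, and 0 rose and 1 fell in WT. Sgk1, a kinase that phosphorylates FOXO factors as AKT does, had a log2 fold change of 1.02 in KO (SE 0.26, limma adjusted p = 0.0108) and of 0.13 in WT (adjusted p = 0.743). Ywhaz, a scaffold that binds phosphorylated FOXO proteins, fell by 0.91 in KO (SE 0.21) and by 0.68 in WT (SE 0.21). Ep300, an acetyltransferase of FOXO proteins, rose by 0.88 in KO (SE 0.25), and Sirt1, a deacetylase, by 0.75 (SE 0.27); their WT differences of 0.36 and 0.58 did not pass. The list median was 0.22 in KO and 0.14 in WT. In this and the following lists the interaction did not pass for any gene. A call in KO alone or in WT alone therefore does not show a difference between genotypes. With 3 libraries a group, the interaction test cannot exclude one either.

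Of 15 other arrest and G1 genes known as FOXO targets, 11 rose and 1 fell in each genotype, with medians of 2.17 in KO and 2.14 in WT. Gadd45b, a paralog of Gadd45a, rose by 3.68 in KO (SE 0.59) and 3.62 in WT (SE 0.59). Cdkn1a, which encodes the inhibitor p21, rose by 2.81 and 2.84 (SE 0.34 each), and Tob2, an antiproliferative relative of Btg1, by 2.79 and 2.92 (SE 0.24 each). Ccnd1, also on the list, encodes cyclin D1, a driver of the cell cycle that FOXO factors repress, and it rose by 4.25 and 4.06 (SE 0.48 each). Like Irs2, Ccnd1 had TDLN means below 1 CPM, at 24.0 and 12.6 normalized counts in KO and WT, so it passed the filter through tumor and its log2 fold depends on the pseudocount. The same holds for Arrdc4, Socs3 and Klf4. It also holds for Cdkn2b of this list, named here after its values were seen, with TDLN means of 14.7 in KO and 12.9 in WT. Cdkn2b rose by 2.17 and 2.14 (SE 0.33 each). Cdkn2d, a cyclin-dependent kinase inhibitor named here after its values were seen as the gene that fell, decreased by 1.95 and 1.75 (SE 0.29 each).

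Of 15 tested stress and metabolic targets, 6 rose and 1 fell in KO and 4 rose and 1 fell in WT, with medians of 0.77 and 0.78. Hmox1, a heme-degrading enzyme, rose by 3.28 in KO (SE 0.70), with 0.76 in WT (limma adjusted p = 0.447). Ddit4, an mTORC1 inhibitor, rose by 1.72 in KO and 1.21 in WT (SE 0.32 each), and Trib1 by 1.4 and 1.31 (SE 0.41 each). Arrdc4, a paralog of Txnip, rose by 2.19 in KO (SE 0.52). In WT Arrdc4 had a log2 difference of 1.09 (SE 0.52, limma adjusted p = 0.139), and the interaction did not pass (1.10, SE 0.73, adjusted p = 1). Arrdc3 rose by 1.09 in WT (SE 0.30), with 0.49 in KO (adjusted p = 0.23), and Rictor, a subunit of mTORC2, rose by 0.99 in KO and 0.82 in WT (SE 0.20 each). The gene that fell in both was Prdx3, a mitochondrial peroxiredoxin named after its values were seen, by 0.78 and 0.63 (SE 0.21 each).

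Of 13 autophagy and atrophy targets, 7 rose in KO and 5 in WT and 0 fell, with medians of 0.80 and 0.61. Bnip3, a mitophagy receptor also induced by low oxygen, rose by 3.00 and 2.27 (SE 0.53 each), and Gabarapl1 by 1.88 and 1.75 (SE 0.32 each). Fbxo32, a ubiquitin ligase subunit of muscle atrophy, rose by 1.63 and 1.82 (SE 0.47 each). Ulk1, a kinase that starts autophagy, rose by 1.43 in KO (SE 0.32), with 0.89 in WT (limma adjusted p = 0.0557), and Ulk2 rose by 0.96 in KO and 1.28 in WT (SE 0.32 each). Of 8 tested death targets, 3 rose and 2 fell in KO and 4 rose and 1 fell in WT, with medians of 0.67 and 0.91. Bcl2l11, which encodes BIM, rose by 3.68 and 3.24 (SE 0.39 each), and Fasl, a death ligand, by 2.88 and 3.25 (SE 0.36 each). Bcl6, a repressor, rose by 1.89 and 2.41 (SE 0.37 each), and Tradd fell by 1.49 and 1.55 (SE 0.31 each).

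FOXO1 targets of homing and memory were divided, with 2 of 13 higher and 4 lower in KO and 3 higher and 5 lower in WT. The medians were -0.99 in KO and -0.83 in WT. Tcf7, which keeps T cells in a memory-like state, fell by 2.82 in KO and 3.31 in WT (SE 0.64 each). Id3 fell by 3.94 and 3.09 (SE 0.49 each), and Ctla4, an inhibitory receptor, rose by 6.0 and 5.45 (SE 0.55 each). Socs3, an inhibitor of cytokine signalling, rose by 3.48 and 3.03 (SE 0.32 each). Bach2, a factor that restrains effector genes, rose by 3.31 in WT (SE 0.81), with 2.25 in KO (limma adjusted p = 0.0529). Among 14 tested other quiescence genes, 8 rose and 1 fell in KO and 6 rose and 1 fell in WT, with medians of 0.97 and 0.85. Klf4, a repressor of T-cell proliferation, rose by 5.80 and 6.07 (SE 0.39 each), and the gene that fell was Pik3ip1, by 3.19 and 2.33 (SE 0.35 each). Runx1 rose by 1.71 and 1.04 (SE 0.21 each) and Zfp36l2, an mRNA decay factor, by 1.67 and 1.78 (SE 0.20 each). Zfp36l1 rose by 1.30 and 1.76 (SE 0.38 each).

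Cycling genes were lower in tumor: 9 of 16 fell in KO and 14 of 16 in WT, and 0 rose. The medians were -0.86 in KO and -1.42 in WT. Mki67 fell by 1.76 in KO and 2.29 in WT (SE 0.40 each), Ccna2, a cyclin of S phase and mitosis, by 1.78 and 2.30 (SE 0.37 each), Ccnb1, the mitotic cyclin B1, by 1.74 and 3.00 (SE 0.59 each), and Ccne1 by 1.60 and 2.06 (SE 0.20 each). The list genes named with a rise or fall passed the limma threshold over all genes. In KO against WT, 0 genes of any of these lists passed in tumor, in TDLN or in the interaction.

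**Figure D4:**
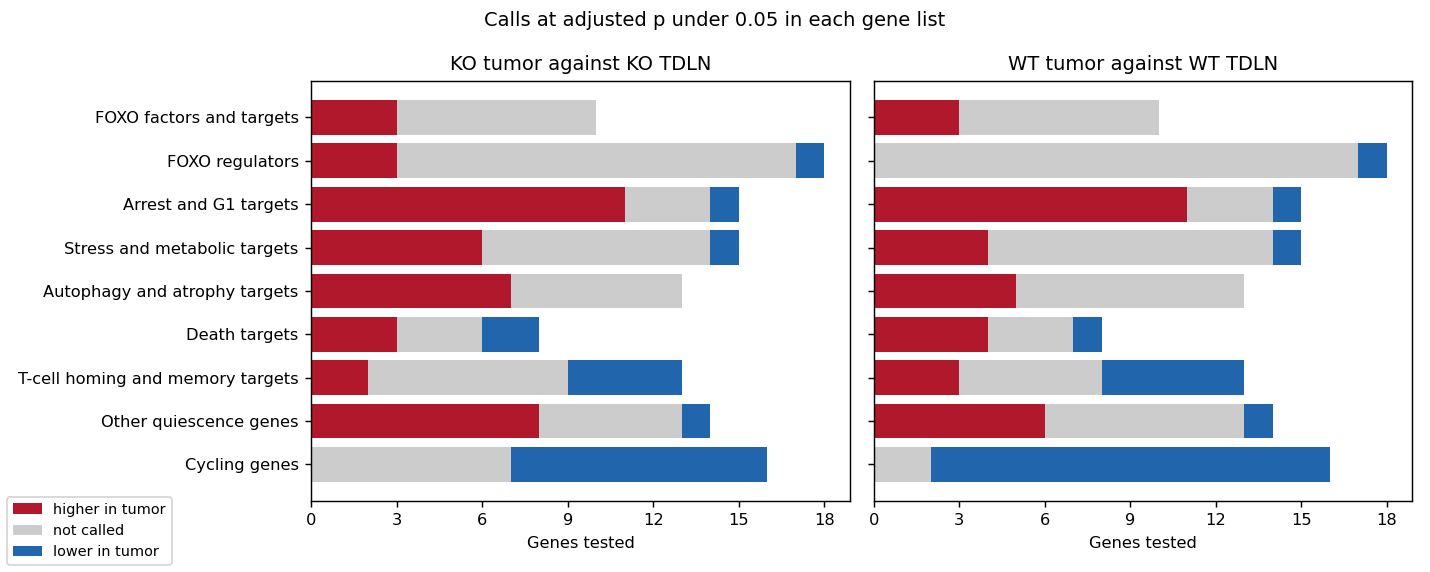
Number of tested genes higher (red), not called (grey) and lower (blue) in tumor against TDLN at an adjusted p under 0.05, for the members and 8 other lists, with KO on the left and WT on the right. Arrest and G1 targets show 11 higher of 15 in both, and cycling genes show 9 lower of 16 in KO and 14 lower of 16 in WT.

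Genes with the most similar profile were taken by the root mean square difference of mean-centred log2 values over the 12 libraries. For Foxo1 these were Fryl (0.17), Ccdc88c (0.17) and Dedd2 (0.19), beside a median of 0.56 over all genes. For Btg1 they were Ubash3b (0.27), Gm37529 (0.33) and Skil (0.35), beside a median of 1.30. For Irs2 they were Cxcl16 (0.39), C5ar1 (0.43) and Pdpn (0.44), beside a median of 1.93. C5ar1, a complement receptor of myeloid cells, averaged 422.1 normalized counts in KO tumor and 0.258 in KO TDLN, and 224.6 in WT tumor and 0 in WT TDLN. Pdpn, a glycoprotein of stromal cells and inflammatory macrophages, averaged 474.4 in KO tumor and 261.1 in WT tumor and was at 0 in all TDLN libraries. Cxcl16, the nearest to Irs2, averaged 374.8 in KO tumor and 435.7 in WT tumor, against 8.64 in KO TDLN and 6.96 in WT TDLN. For Gadd45a, added after its values were seen, the nearest were Tiparp (0.29), Emilin2 (0.32) and Spi1 (0.33), beside a median of 1.21. Spi1 averaged 112.7 in KO tumor and 86.6 in WT tumor, against 10.3 in KO TDLN and 7.09 in WT TDLN. Which cells the Irs2 and Gadd45a RNA came from was not tested.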

How the data were processed

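RNA of tetramer-sorted CD8 T cells was measured in 12 libraries, grouped by the tissue and genotype in their titles. Libraries were made with a stranded polyA kit, per the labels. Per the file headers, the signal values are normalized counts per Ensembl gene exported from Partek by the authors. From the values, 84.9% to 88.1% of those under 50 reads were whole multiples of 1 read, within 0.01 reads, so count models were not used. Per the submitters' processing notes, GRCm38 and GRCm39 both appear, without roles. No label or header names the aligner or the strand setting. Gene versions equal those of GENCODE M21 in 34 of 26520 shared IDs, so its gene models served only for gene positions, exon lengths and overlaps. Without a stated strand setting, reads of Txnip and its antisense gene Gm15441 (mean 59.5 normalized counts), and of Gadd45a and E230016M11Rik (23.2), cannot be told apart.

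One limma 3.58.1 model with an intensity trend (R 4.3.3) was fitted to the 12 libraries, with 1 mean per group, 8 residual and 4.47 prior degrees of freedom. Intervals of 95% used the quantile 2.17. Python 3.11.15, with pandas 2.3.3, numpy 2.4.6 and matplotlib 3.10.9, did the rest. The fit was tested on simulated data. Members and lists (20 lists, 211 of 219 symbols found) were chosen with earlier results of these data known. The named genes are the members, Pik3ip1, Mki67, Cd8a, up to 4 passing genes by fold per list and tissue comparison, and the 3 genes most like Foxo1, Btg1 and Irs2; 1 list gene that this rule names is not reported here. Other scalings, pseudocounts, filters, weights, the replicate block and leaving out each library were tried.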

Additional observations from a re-analysis of the deposited data

How the results depend on the processing

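Over 21 other settings, Btg1, Irs2 and Gadd45a were called as higher in tumor in both genotypes under every setting run for those comparisons, and 0 members were called in KO against WT or in the interaction. Txnip in KO with array weights and Sesn1 in WT without WT tumor replicate 1 were the further calls. Without KO TDLN replicate 1 the count of all genes called in KO tumor against TDLN was 3067, against 4919. In KO against WT tumor 6 genes were called with no filter, and 10 without WT tumor replicate 1. In TDLN the fit with only the compared groups gave no value for Irs2, which did not pass the filter there. Values near 0 changed sign, none of them called. With a common column total, Foxo1 and Cdkn1b were at -0.03 and -0.05 in WT tumor against TDLN, and -0.03 and -0.02 in KO against WT in TDLN. With array weights, Foxo1, Cdkn1b and Irs2 were at -0.01, -0.10 and -0.17 in TDLN, and Ccng2 and Sesn3 at -0.09 and 0.11 in the interaction. Leaving out 1 library gave these ranges. WT tumor against TDLN: Cdkn1b -0.09 to 0.35. KO against WT in tumor: Cdkn1b -0.06 to 0.37, Ccng2 -0.20 to 0.45, Sesn3 -0.28 to 0.71, Txnip -0.41 to 0.01. KO against WT in TDLN: Foxo1 -0.17 to 0.23, Foxo3 -0.18 to 0.45, Btg1 -0.07 to 0.69, Cdkn1b -0.17 to 0.15, Sesn1 -0.10 to 0.31, Irs2 -0.23 to 0.57, Gadd45a -0.39 to 0.04. Interaction: Cdkn1b -0.09 to 0.34, Ccng2 -0.40 to 0.25, Sesn3 -0.71 to 0.28, Irs2 -0.10 to 0.75, Txnip -0.01 to 0.59. The cause was not tested. Same-numbered tumor and TDLN libraries had correlations of deviations across genes of -0.02 to 0.04 in KO and -0.04 to 0.20 in WT, and 1 of 3 libraries in each correlated best with its own number. With 3 libraries a group, these values cannot decide whether same-numbered libraries came from 1 mouse. Libraries were not treated as paired because the labels do not say so. With the replicate block, 3 members were called in each tissue comparison and 0 in the other comparisons. For the tissue comparisons and the interaction the block was genotype and replicate number together. For KO against WT it was the number alone, which joins libraries of different mice. The Irs2 fold ranged over pseudocounts from 2.45 to 4.95 in KO and 2.11 to 4.70 in WT, and over left-out libraries from 3.43 to 4.28 and 3.32 to 3.86. Depth was not varied.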

Other observations

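The paralogs given here were picked after values were seen. Btg3, like Btg1 an antiproliferative gene, averaged 1842 ± 262.1 normalized counts in KO tumor and 339.4 ± 49.4 in KO TDLN, and 2175 ± 628.6 in WT tumor and 332.2 ± 119.2 in WT TDLN (SD, n = 3 each). It rose by 2.36 in KO and 2.64 in WT on the log2 scale (SE 0.26 each; limma adjusted p = 4.53e-05 and 2.54e-05). Ccng1, a p53-induced relative of Ccng2, averaged 2712 ± 860.2 in KO tumor and 2991 ± 217.5 in KO TDLN, with a log2 difference of -0.19 (SE 0.25, limma adjusted p = 0.607). In WT it averaged 2380 ± 678.9 in tumor and 2878 ± 428 in TDLN, a difference of -0.30 (SE 0.25, adjusted p = 0.402). Foxo4 averaged 112.3 ± 56.2 in KO tumor and 76.2 ± 25.1 in KO TDLN, and 115.4 ± 45 in WT tumor and 52.6 ± 19.4 in WT TDLN, and did not pass (limma adjusted p = 0.437 and 0.112). Irs1, a relative of Irs2, was at 0 in all TDLN libraries and averaged 56.3 ± 49.5 in KO tumor and 28.4 ± 12.9 in WT tumor.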
